A study of Homo sapiens with 6 samples.

Results

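The 10 genes described here encode the main survival and death proteins of the BCL2 family. They were chosen by name, as the rows of the deposited count table whose Ensembl identifier maps to one of the 10 symbols. All 10 were found, each with 1 row, among 60665 genes. By role they are 3 anti-apoptotic genes (BCL2, BCL2L1 and MCL1), 2 effectors (BAX and BAK1) and 5 BH3-only genes (BBC3, PMAIP1, BCL2L11, BID and BAD).

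BCL2 family proteins decide whether the outer membrane of the mitochondrion is opened, the step that commits a cell to intrinsic apoptosis. Anti-apoptotic members hold the effectors and the BH3-only proteins in a groove on their surface. BH3-only proteins are stress sensors that bind this groove or the effectors through a short helix, the BH3 motif. Once free, BAX and BAK1 form pores that release cytochrome c, which starts the caspase cascade. Neuroblastoma cells arise from sympathetic neural precursors, a lineage in which BCL2 proteins set survival when growth factors are withdrawn.

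Messenger RNA was sequenced from SH-SY5Y, an established human neuroblastoma line that is a cloned subline. The labels list 3 control samples, which received 10 uL of DMSO per well, and 3 samples that received a fumarate joined to an Nrf2 peptide (2 mg in 600 uL of water, 200 uL per well) and also 10 uL of DMSO. Wells of both groups held 2 mL of medium, were at 80% confluence when treated, and were lysed after 5 h. No label mentions water for the control wells. The labels number the controls 4, 5 and 6 and the peptide-treated samples 13, 14 and 15. The table has 6 count columns, numbered from 1 upwards, so 3 of them match the controls and the other 3 match no label. Samples given the peptide are not analysed here, and no effect of the peptide is reported. The name control rests on these numbers, and with columns renumbered by the submitters the same libraries could hold treated cells.

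Libraries of control replicates 1, 2 and 3 held 8887854 to 11397407 counts. All 10 noradrenergic neuroblastoma markers, HAND2 and GATA3 among them, had at least 10 counts in every library and a summed level of 3714 to 4526 TPM. Of 10 mesenchymal or fibroblast markers, 7 reached that count, with a summed level of 268 to 278 TPM led by COL3A1, while PRRX1 and TWIST2 had 0 counts. Leukocyte, epithelial, endothelial and hepatocyte lists summed to at most 4.91 TPM in any library, and CD3E, LYZ, CDH1 and CDH5 had 0 counts. Mitochondrially encoded genes took 6.25% of the counts in replicate 3, against 4.11% in replicate 1 and 3.83% in replicate 2.

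The feature that the family shares is the BH3 core: a leucine codon (CTN, TTA or TTG), 3 codons of any kind, a glycine codon (GGN) and an aspartate codon (GAC or GAT). Each member's principal coding sequence in GENCODE release 29 was read in frame for this pattern. It was found once in 8 of the 10 members, against 13.8% of 19477 coding genes. The pattern was chosen as one that the family shares, so this contrast was fixed in advance. The stretch is shown here because it is what the proteins of opposite function have in common. Capitals mark the 6 codons of the pattern, with 18 bases on either side:

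BCL2, codons 97 to 102: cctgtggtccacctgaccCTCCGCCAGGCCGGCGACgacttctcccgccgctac

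BCL2L1, codons 90 to 95: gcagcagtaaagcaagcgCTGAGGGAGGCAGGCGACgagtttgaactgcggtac

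MCL1, codons 213 to 218: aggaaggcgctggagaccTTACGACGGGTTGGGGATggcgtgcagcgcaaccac

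BAX, codons 63 to 68: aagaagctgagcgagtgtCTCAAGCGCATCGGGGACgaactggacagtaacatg

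BAK1, codons 78 to 83: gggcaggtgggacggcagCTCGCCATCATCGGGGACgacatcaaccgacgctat

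PMAIP1, codons 29 to 34: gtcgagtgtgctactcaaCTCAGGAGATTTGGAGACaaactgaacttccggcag

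BCL2L11, codons 92 to 97: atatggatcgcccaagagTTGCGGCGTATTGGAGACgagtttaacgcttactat

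BID, codons 136 to 141: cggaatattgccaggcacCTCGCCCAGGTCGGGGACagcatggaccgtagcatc

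BBC3 and BAD held no match. With the glycine codon replaced by one for alanine (GCN) or serine (TCN, AGC or AGT), each had 1, against 27.1% of coding genes with at least 1 match of this looser form. BID also had 1 such match, at codons 71 to 76, apart from the stretch given above. The looser form thus matched 3 of 10 members, near the share over all coding genes.

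BBC3, codons 141 to 146: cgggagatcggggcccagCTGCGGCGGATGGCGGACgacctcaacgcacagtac

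BAD, codons 114 to 119: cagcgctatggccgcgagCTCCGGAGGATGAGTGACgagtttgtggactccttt

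The coding sequences around the motif differ widely in length. PMAIP1 has the shortest, 54 codons, and MCL1 the longest, 350 codons.

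Since the study concerns NRF2, promoters were searched on both strands for the core of its binding site, the antioxidant response element (TGACNNNGC). RefSeq promoters of GRCh38.p14, from 250 bases before to 50 after a gene's start, were given for 9 members as 15 entries, several genes having more than 1 start. MCL1 had no entry. The core was present in 4 entries of 3 members (BAD, BAX and BCL2L1), against 13.3% of 35116 promoters. The matches are shown in capitals, on the strand of the gene, and overlapped none of the other motifs searched:

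BAX, chr19:48954776-48954804, plus strand: tgcggtcacgTGACCCGGCggcgctgcgg

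BAD, chr11:64284766-64284794, minus strand: cgggccgggtTGACCCCGCctctggacct

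BCL2L1, chr20:31723929-31723957, minus strand: gcaccggaagTGACTGAGCttgcaagttc

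In BAX the match began 89 bases upstream of the start. BAD has a pair of annotated starts, and the same match lay 80 or 119 bases upstream of them. In BCL2L1 it began 16 bases downstream of 1 of 2 starts. The other motifs were the GC box GGGCGG in 11 of 15 entries (45.0% of all promoters), CCAAT in 6 (34.6%) and TATAAA in 1 (11.5%). The entries are not independent, since those of BAD overlap, as do several of BID, the gene with most entries. By gene, the GC box was found for BAD, BAK1, BAX, BCL2L1, BCL2L11, BID and PMAIP1. The p53 consensus decamer was present in 1 entry, that of BAK1, against 6.63% of all promoters. Member promoters were rich in GC, with a median over these entries of 68.7% against 58.7% over all promoters. These are matches of letters only, and the data hold no measurement of binding.

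Levels between genes are given as TPM, counts divided by the exonic length of the gene and scaled to 1000000 per library, with edgeR's TMM factor. MCL1 stood far above the rest, BAX followed, and the other 8 lay between 21.9 and 58.8 TPM on average. Over the 10 genes, the median was 35.4, 38.2 and 33.3 TPM in replicates 1, 2 and 3 (mean 35.6 ± 2.45, SD, n = 3). The same value over the 13868 genes that reached 10 counts in every library and have a known length was 23.7 ± 0.815 TPM. All 10 members had at least 10 counts in every library.

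**Figure D1:**
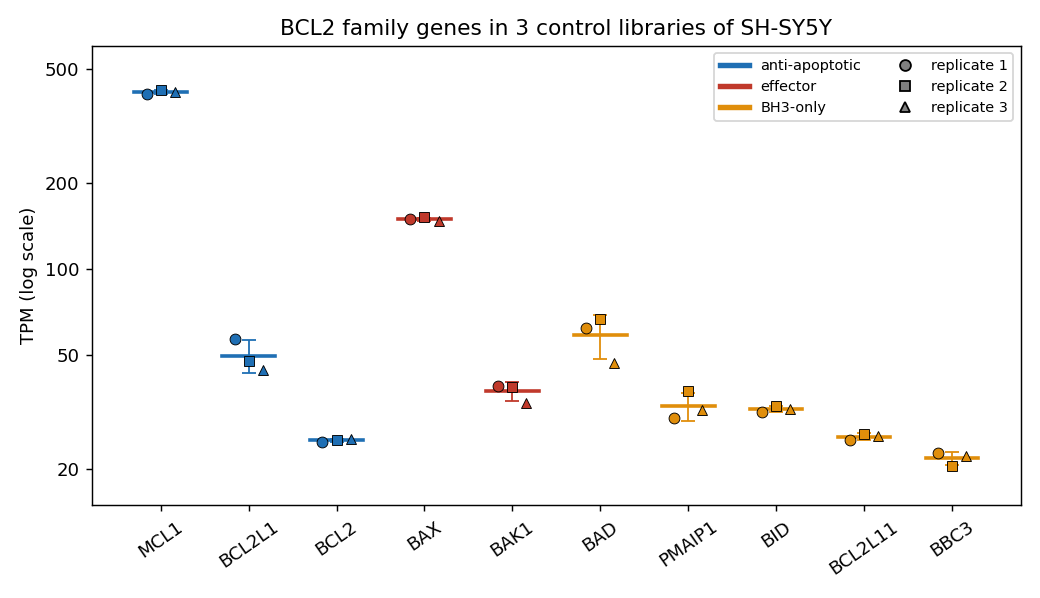
TPM on a log axis for the 10 genes, grouped by role; markers are the 3 control libraries, horizontal lines their mean and bars 1 SD. MCL1 lies near 414 TPM and BAX near 149 TPM, and the points of BAD and BCL2L1 are the most spread.

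Among the anti-apoptotic genes, MCL1 (ENSG00000143384.14, chr1:150574551-150579738, minus strand) encodes a short-lived guardian that holds BAK1 and binds the BH3 helices of PMAIP1 and BCL2L11. Its level was 407, 421 and 416 TPM in replicates 1, 2 and 3, or 414 ± 6.99 (SD, n = 3), from 4842, 5296 and 4380 counts. This placed it at percentile 98.2 of the genes measured. The highest library, replicate 2, and the lowest, replicate 1, were close on this scale.

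BCL2L1 (ENSG00000171552.14, chr20:31664452-31723989, minus strand) encodes BCL-XL and, by splicing, a shorter form that promotes death. Gene counts do not separate these forms. Its levels were 57.1, 48.0 and 44.4 TPM, or 49.8 ± 6.52 (SD, n = 3), from 515, 458 and 355 counts. Replicate 1 was highest on this scale.

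BCL2 (ENSG00000171791.14, chr18:63123346-63320128, minus strand) is the founding member, first known from lymphoma, and holds BAX and BCL2L11. Its 3 libraries gave 24.8, 25.3 and 25.6 TPM, or 25.3 ± 0.379 (SD, n = 3), from 796, 859 and 726 counts. BCL2 had rank 3 by CPM (counts per 1000000, which ignores length) and rank 9 per length. Its annotated exons cover 11765 bases. It had the longest exons of the 10 genes, and BAD, with 1708 bases, the shortest.

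Within each library MCL1 made up most of this group, with 83.2, 85.2 and 85.6% of its summed TPM. The ratio of MCL1 to BCL2 was 16.4, 16.6 and 16.2 in the 3 libraries, and that of MCL1 to BCL2L1 was 7.13, 8.77 and 9.35. BCL2L1 exceeded BCL2 in every library, 1.98 ± 0.289 times on average (SD, n = 3).

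Of the effectors, BAX (ENSG00000087088.20, chr19:48954815-48961798, plus strand) is a cytosolic protein that moves to mitochondria when activated, and BAK1 (ENSG00000030110.13, chr6:33572547-33580293, minus strand) sits in the outer membrane from the start. BAX gave 149, 151 and 148 TPM, or 149 ± 1.89 (SD, n = 3), from 1050, 1128 and 921 counts. BAK1 gave 39.2, 38.9 and 34.1 TPM, or 37.4 ± 2.85, from 236, 248 and 182 counts. The effectors did not overlap: BAX was 3.80, 3.89 and 4.33 times BAK1. This ratio depends on the length used, and was 7.63 ± 0.534 (SD, n = 3) with the longest transcript of each gene in place of all annotated exons.

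Ratios of a guardian to an effector depended on the pair. MCL1 was 10.4, 10.8 and 12.2 times BAK1 and 2.73, 2.78 and 2.81 times BAX. With the longest transcript, MCL1 was 1.62 ± 0.0250 times BAX (SD, n = 3). BCL2 reached only 0.167, 0.167 and 0.173 of BAX, and BCL2L1 0.383, 0.317 and 0.301 of BAX (0.222 ± 0.0290 with the longest transcript). MCL1 was thus the one anti-apoptotic gene whose transcript level exceeded that of BAX, in each of the 3 libraries. These are ratios of transcripts, and protein was not measured.

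The BH3-only genes spanned 21.9 to 58.8 TPM on average. BAD (ENSG00000002330.14, chr11:64269830-64284704, minus strand), a sensor switched off by survival kinases, was highest with 62.3, 67.1 and 47.1 TPM, or 58.8 ± 10.4 (SD, n = 3), from 290, 330 and 194 counts. Replicate 3 lay below both others. PMAIP1 (ENSG00000141682.12, chr18:59899948-59904306, plus strand) encodes NOXA, a p53 and stress target that binds MCL1. Its values were 30.2, 37.4 and 32.3 TPM, or 33.3 ± 3.71, from 184, 241 and 174 counts.

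BID (ENSG00000015475.19, chr22:17734138-17774770, minus strand) links death receptors to mitochondria once caspase-8 cleaves it. Its 3 libraries were close, at 31.6, 33.3 and 32.5 TPM, or 32.5 ± 0.814 (SD, n = 3), from 383, 426 and 348 counts. BCL2L11 (ENSG00000153094.24, chr2:111119378-111168447, plus strand) encodes BIM, which mediates the death of neurons deprived of growth factor. It gave 25.3, 26.6 and 26.2 TPM, or 26.0 ± 0.656, from 459, 510 and 421 counts.

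BBC3 (ENSG00000105327.18, chr19:47220822-47232766, minus strand) encodes PUMA, a BH3-only protein induced by p53. It was the lowest of the 10 genes per length of all annotated exons, though not per longest transcript, with 22.7, 20.5 and 22.3 TPM, or 21.9 ± 1.18 (SD, n = 3), from 197, 188 and 171 counts. This gene still stood at percentile 47.8 of the genes measured. BAD made up 36.2, 36.3 and 29.4% of the summed BH3-only TPM, and BBC3 13.2, 11.1 and 13.9%.

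Ratios between genes whose proteins bind each other were steady for some pairs. MCL1 was 16.1, 15.8 and 15.8 times BCL2L11, and BCL2 was 0.981, 0.953 and 0.976 of BCL2L11. The order of BCL2 and BCL2L11 turned with the length used, and with the longest transcript BCL2 was at 29.6 ± 0.823 and BCL2L11 at 24.7 ± 0.760 TPM (SD, n = 3). The transcripts of these 3 genes have 45.1 to 45.7% GC. BAX has 58.9%, and the ratios of MCL1 to BAX (2.73 to 2.81) and BCL2 to BAX (0.167 to 0.173) were also close between libraries. Whether GC bears on the ratios was not tested. Other ratios had a wider spread. MCL1 was 13.5, 11.2 and 12.9 times PMAIP1, and BCL2L1 was 0.915, 0.715 and 0.943 of BAD.

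In the order of mean TPM, 4 of the 9 neighbouring pairs had ranges that overlapped over the 3 libraries. These pairs were BAD with BCL2L1, BAK1 with PMAIP1, PMAIP1 with BID, and BCL2L11 with BCL2. PMAIP1 and BID changed places between libraries, PMAIP1 being higher in 1 of 3. The steps from MCL1 to BAX (2.77 times) and from BAX to BAD (2.54 times) were the largest.

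The order below the top depends on which length is used. With the longest transcript in place of all annotated exons, MCL1, BAX, BAD and BCL2L1 kept ranks 1 to 4. BAK1 went from rank 5 to rank 9 and BCL2 from rank 9 to rank 6. BCL2L11 went from rank 8 to the lowest place, rank 10, at 24.7 ± 0.760 TPM, and BBC3 from rank 10 to rank 8. BID moved from rank 7 to rank 5, at 43.0 ± 1.19 TPM. BBC3 and PMAIP1 then differed by less than their spread, at 28.1 ± 1.74 against 28.4 ± 3.01 TPM (SD, n = 3).

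By role, the summed TPM of the 3 anti-apoptotic genes was 489, 494 and 486, which is 57.5, 56.8 and 58.7% of the 10 genes (mean 57.7 ± 0.923%, SD, n = 3). The 2 effectors held 22.2, 21.9 and 22.0%, and the 5 BH3-only genes 20.3, 21.3 and 19.4%. Effectors were above BH3-only genes in each library, though the shares of the groups were close in replicate 2. With MCL1 left out, an alternative chosen after seeing the data, the anti-apoptotic share was 18.5, 16.3 and 17.0%. MCL1 alone held 47.9, 48.4 and 50.2% of the total. The sum over all 10 genes was 849, 869 and 828 TPM, lowest in replicate 3, the library with the highest mitochondrial share. A link to that share was not tested. The order depends on the scale: in CPM, replicate 3 was above both other libraries for 6 of the 10 members and below both for 2. With mitochondrial genes left out of the total, the median over the 10 genes was 43.5 ± 1.58 TPM (SD, n = 3). MCL1, BAX and BCL2 were then at 507 ± 24.6, 183 ± 6.28 and 30.9 ± 1.74 TPM, a wider spread than with the full total. The SD fell only for BAK1 (to 1.58 TPM) and BAD (to 9.88 TPM). The narrow spread of MCL1, BAX and BCL2 in TPM thus holds for the full total only.

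**Figure D2:**
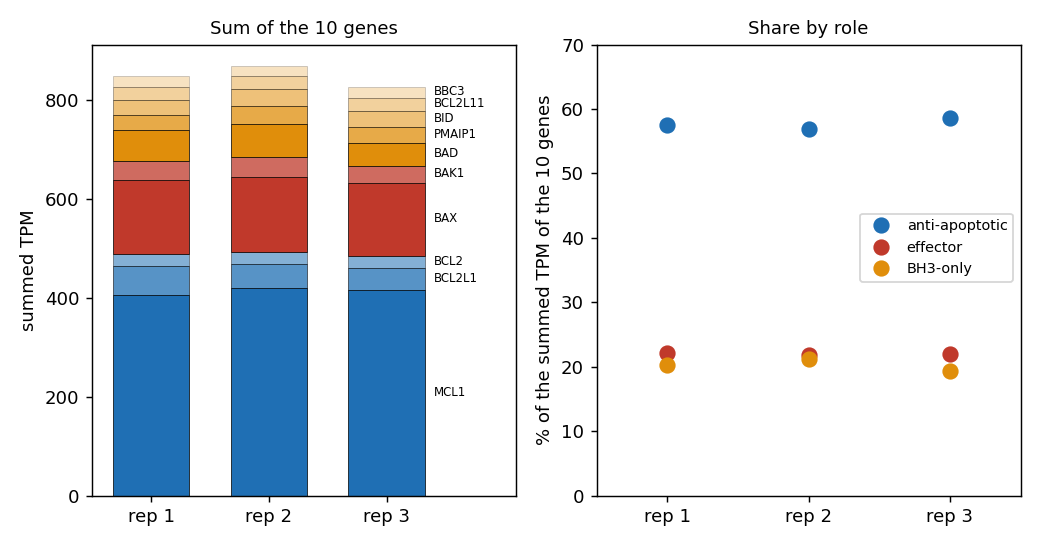
Left, summed TPM of the 10 genes in each control library, stacked by gene and coloured by role (blue anti-apoptotic, red effector, orange BH3-only); right, each role's percent of that sum. The MCL1 segment spans 407 to 421 TPM, and the anti-apoptotic share stays between 56.8 and 58.7%.

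Spread between libraries was judged on CPM. For each of the 13920 genes that reached 10 counts in every library, a chi-square statistic set the counts against the scaled library totals. A gene was called where it passed 5.99, the 95% point for counting error alone. By this rule 3 of the 10 members were called (BCL2L1, MCL1 and BAD), against 36.6% of all genes. Among 8547 genes with mean counts between those of the lowest and highest member, 48.3% were called. With only 10 members, a count of 3 is near the share over all genes, and no difference is read from it. The test compares libraries of 1 group, not conditions.

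MCL1, the gene with most counts, was called with the highest statistic of the members, 19.1. Its values were 453, 463 and 495 CPM, a coefficient of variation of 4.62% where counting alone gives 1.44%. BCL2L1, at 48.2, 40.1 and 40.1 CPM, had a coefficient of 10.9% against 4.81%. BAD, at 27.1, 28.9 and 21.9 CPM, had the widest spread of the 10 genes, 14.0% against 6.23%.

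The other 7 did not pass this rule. BAX was the steadiest, with 98.2, 98.7 and 104 CPM and a coefficient of 3.21% against 3.12% from counting. BAK1 varied by 3.69% and BID by 4.67%, below their counting errors of 6.77 and 5.11%. Their values were thus as even as the depth can show. BCL2 had 74.4, 75.2 and 82.0 CPM, with replicate 3 highest, and BCL2L11, at 42.9, 44.6 and 47.5 CPM, followed the same order of libraries. PMAIP1, at 17.2, 21.1 and 19.6 CPM, was instead highest in replicate 2. BBC3, the gene with fewest counts, had 18.4, 16.5 and 19.3 CPM and a coefficient of 8.10% against 7.36% from counting. The median coefficient was 5.29% over the 10 members and 6.99% over the 8547 genes of like counts. The highest CPM was at least 1.2 times the lowest for 3 members, against 44.9% of all genes. These were BAD (1.32 times), PMAIP1 (1.23 times) and BCL2L1, which only just reached it.

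**Figure D3:**
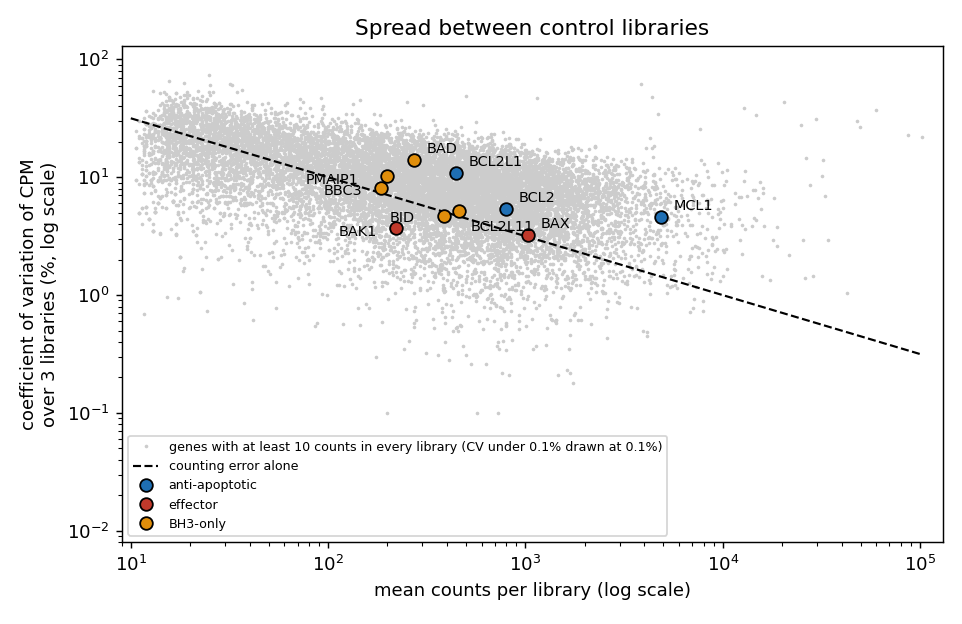
Coefficient of variation of CPM over the 3 control libraries against mean counts per library, both on log axes; grey points are the genes that reached 10 counts in every library and the dashed line is counting error alone. BAX, BID and BAK1 lie on or under the line, and MCL1 lies above it at 4.62%.

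Replicate 3 was above both other libraries in CPM for 6 members, against 38.6% of all genes, and below both for 2 members, BAK1 and BAD, against 41.8%. Deviations of this library followed transcript GC across all genes. In the quintile of genes with the lowest GC its log2 CPM exceeded the mean of the other libraries by a median of 0.21, and in the quintile with the highest GC the median difference was -0.20. Member transcripts span most of this range, from 37.2% GC in PMAIP1 to 69.7% in BBC3.

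Some members lay near the level of genes of like GC and others did not. The log2 difference of replicate 3 was 0.11 for MCL1, where its quintile had a median of 0.09, and -0.14 for BCL2L1, where its quintile had -0.12. BAD was at -0.35 in the quintile with the highest GC. BAX and BBC3, in that same quintile, were at 0.08 and 0.15, and PMAIP1, in the quintile with the lowest GC, was at 0.04.

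Removing the GC trend changed which members were called, though not how many. MCL1 remained (statistic 6.79), BCL2L1 and BAD were no longer called (5.56 and 2.54), and BAX and BBC3 were called (16.4 and 11.1). The background was then 20.8% of all genes. With the trend removed, the log2 difference of replicate 3 was 0.43 for BBC3 and 0.22 for BAX. Without replicate 3, the calls were BCL2L1 and PMAIP1, against 14.8% of all genes. Without replicate 1, they were MCL1 and BAD, against 28.0%. In both cases the remaining 2 libraries were tested against the lower threshold of 3.84.

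**Figure D4:**
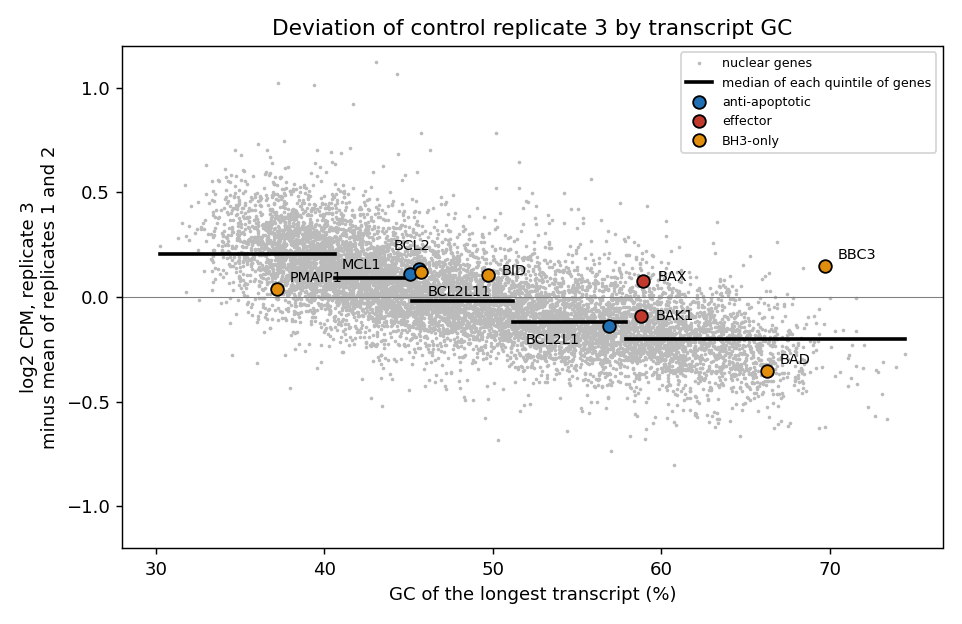
Log2 CPM of control replicate 3 minus that of the mean of replicates 1 and 2, against GC of the longest transcript, for 10290 nuclear genes (grey) and the 10 members (coloured by role); black lines are the medians of each quintile of genes. BAD lies at -0.35 and BBC3 at 0.15, both among the transcripts of highest GC.

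Exons of some members overlap those of other genes in the annotation. In GENCODE release 29, 43.0% of the exonic bases of BCL2L1 lie opposite ABALON, an antisense RNA with 0 counts in each library. For BAD, 23.7% lie opposite GPR137, which had 577, 555 and 405 counts. BCL2L11 shares 10.9% with MIR4435-2HG, which had 41, 43 and 42 counts. The strand setting of the counting is not given in the sources used here, so the levels of these 3 genes are uncertain where exons overlap. MCL1, BAX, BCL2, BID and PMAIP1 share no exonic base with a gene on the other strand. Pseudogenes named for BAK1 had at most 1 count.

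Of 64 further genes of the death pathway, 55 had at least 10 counts in every library. By the chi-square rule, 28 of these 55 differed beyond counting error, where 36.6% of all genes did. Among the 8547 genes within the members' range of counts, 48.3% did. The 55 genes were not matched for counts themselves. Replicate 3 was highest for 21 of the 55 and lowest for 22, where over all genes it was highest for 38.6% and lowest for 41.8%.

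**Figure D5:**
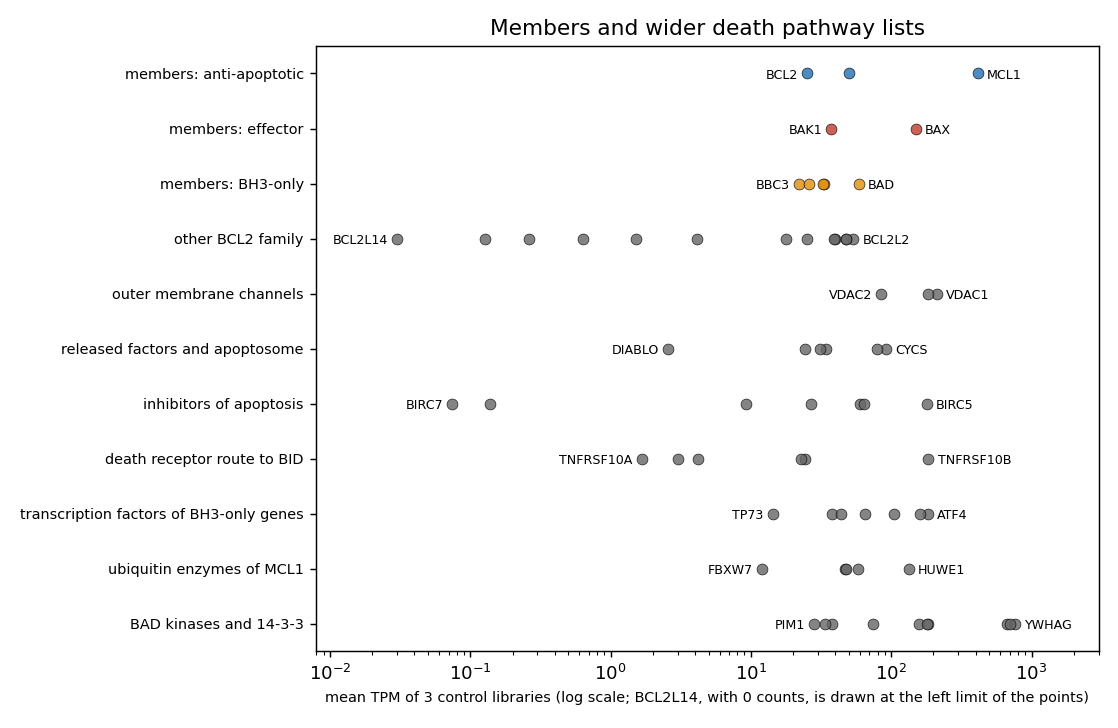
Mean TPM over the 3 control libraries on a log axis, for the 10 members by role and for 8 of the wider lists (caspases are not drawn), with the highest and lowest gene of each named. The members lie at 21.9 TPM or more, while the lists of other BCL2 family genes and inhibitors of apoptosis reach below 1 TPM.

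Among 13 other BCL2 family genes, 8 had at least 10 counts in every library. BCL2L2, the guardian BCL-w, was highest with 60.3, 50.7 and 50.5 TPM, but 19.4% of its exonic bases are shared on the same strand with the readthrough gene BCL2L2-PABPN1. BCL2L14 had 0 counts throughout. A count of 0 allows for 3 counts, or 0.263 to 0.339 CPM depending on the library. The summed level of these 13 genes was 258 to 295 TPM, below the 407 TPM or more of MCL1 alone.

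Of the 3 channel genes of the outer membrane, VDAC1 was highest at 210 TPM. VDAC2, the one known to hold BAK1, was lowest at 85.1 TPM. Of the factors released on permeabilisation, CYCS, encoding cytochrome c, had 86.9, 91.9 and 97.2 TPM. DIABLO was lowest at 2.58 TPM, but 29.6% of its exonic bases are shared on the same strand with AC048338.1 and another annotated entry named DIABLO. The value is for a single entry, so the level of this gene is uncertain.

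Of 7 caspase genes, 6 had at least 10 counts in every library. CASP10 had 1, 1 and 2 counts. CASP8, the initiator that cleaves BID, had 27, 30 and 20 counts, 1.37, 1.44 and 1.15 TPM. It was named after its values were seen. Per length, BID was at 23.1, 23.1 and 28.3 times the level of CASP8 in replicates 1, 2 and 3. With the longest transcript of each gene the ratio was 17.9 ± 2.17 (SD, n = 3).

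Receptors upstream of CASP8 ranged from TNFRSF10A, with 11, 20 and 9 counts, to TNFRSF10B, a TRAIL receptor, at 186, 186 and 181 TPM. Inhibitors of apoptosis were led by BIRC5 (survivin) at 178 TPM, and BIRC7 had 0, 1 and 0 counts. Of the transcription factors, ATF4 was highest at 199, 192 and 159 TPM and TP73 lowest at 14.3 TPM.

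Enzymes that set MCL1 turnover were led by HUWE1, a ligase for MCL1, at 144, 140 and 115 TPM. FBXW7 was lowest at 11.9 TPM. In the list of BAD kinases and 14-3-3 proteins, which sequester phosphorylated BAD, YWHAG was highest at 759 TPM and PIM1 lowest at 28.0 TPM. Replicate 3 was above both other libraries in CPM for 4 of the 5 MCL1 enzymes and for 5 of the 10 genes of the BAD list, and below both for 1 and 4. Over all genes these shares were 38.6% above and 41.8% below. Of the 7 transcription factors, 1 was above and 6 below. Among genes with at least 10 counts, the 8 other BCL2 family genes had 1 above and 4 below. Inhibitors of apoptosis had 3 and 1 of 5, the death receptor list 3 and 2 of 5, and caspases 2 and 3 of 6. Released factors had 1 and 1 of 6, and the channels 1 and 0 of 3. The lists are short, and no difference is read from them. Replicate 3 followed transcript GC across all genes, and whether GC bears on these counts was not tested.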

How the data were processed

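The authors deposited 1 table of raw counts per Ensembl gene, whole numbers without normalization. Per the submitters' processing notes, fastp 0.21.1, STAR 2.7.7a, featureCounts and GRCh38 were used. Annotation release, strand setting and the treatment of shared reads are not given in the sources used here. Columns were matched to samples by the number in the labels, and 3 sample columns that match no label were not used. The members and all lists were chosen with earlier results of these data known.

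The table lists 60710 genes, of which 1 has no value in the columns used, its entry being broken over lines of which 2 name no gene. After 44 duplicate identifiers without counts were left out, 60665 remained, and 60436 had a symbol. Lengths, GC and positions came from GENCODE 29 (GRCh38), and genes without a length held 0.0485% of the counts. CPM used TMM factors, computed with edgeR 4.0.16 (R 4.3.3). TPM used the union of annotated exons and the same factors. The GC trend was the median deviation in 50 bins over 10290 nuclear genes whose mean reached 100 counts. The chi-square rule was tested on simulated data for the 3 control libraries (13920 genes): it called 5.02% of unchanged genes, 63.3% of genes changed 1.2-fold and 97.0% of genes changed 2-fold in 1 library. No p-value is given, since 1 group allows no comparison of conditions. Whether the libraries come from separate cultures is not stated, so the spread may be technical. Limits for a count of 0 and counting errors cover counting only. All 10 members were named, and of each wider list the highest and lowest gene and any gene with 0 counts. GATA3 and CASP8 were named outside that rule, and 1 or more items it would name are not reported here. Alternatives were RLE factors, library size alone, removal of mitochondrial genes or of the GC trend, other lengths and count minimums, and each replicate left out. Scripts ran in Python 3.11.15 with scipy 1.17.1, pandas 2.3.3 and numpy 2.4.6.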

Additional observations from a re-analysis of the deposited data

How the results depend on the processing

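No paired analysis was possible because no table column carries the number of a peptide-treated sample. The count of genes that differed among the control libraries beyond counting error, 5090, was 2894 with the GC trend removed and ranged from 2133 to 5243 with one replicate left out, lowest without replicate 3. Members called were 3 under every alternative that kept all 3 libraries, but BAX and BBC3 replaced BCL2L1 and BAD when the GC trend was removed. The anti-apoptotic share of the summed member TPM, 57.7%, was 49.5% with the length of the longest transcript and 17.3% with MCL1 left out. It ranged from 57.2 to 58.1% with one replicate left out. Scaling factors and mitochondrial genes cannot move this share, by its construction. The median member TPM, 35.6, was 43.5 with mitochondrial genes left out, because the smaller total raises every other gene, and ranged from 34.3 to 36.9 with one replicate left out. Levels of single members moved by more than 1 SD for 10 of 10 without mitochondrial genes and for 8 of 10 with the longest transcript. They moved for none with the RLE factors, library size alone or the GC trend removed. By construction these settings shift libraries against each other, so a mean over the libraries can hardly move. With the GC trend removed, the SD widened for MCL1, BAX, BBC3, PMAIP1 and BID and narrowed for the other members. For BAX it went from 1.89 to 6.86 TPM and for BAD from 10.4 to 6.10 TPM. Depth limits BBC3, PMAIP1 and BAK1 most, whose counting errors were 6.35 to 7.65% per library.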
